A study of Homo sapiens with 6 samples.

Results

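SQSTM1 and 9 other genes of selective autophagy were compared between 2 human esophageal squamous cell carcinoma (ESCC) cell lines, KYSE70 and NRF2null-KYSE70. The genes were chosen by symbol, as 5 cargo receptors (SQSTM1, NBR1, OPTN, TAX1BP1 and CALCOCO2), 2 ubiquitin-like proteins of the ATG8 family (MAP1LC3B and GABARAPL1), the initiating kinase ULK1, and ATG5 and ATG7 of the conjugation machinery. All 10 symbols occurred once among the 58884 genes of the table, and all 10 passed the filter on low values. KYSE70 is an established line that carries a mutant NFE2L2, the gene of the transcription factor NRF2. NRF2null-KYSE70 was derived from it by CRISPR-Cas9 cutting in exon 2 of NFE2L2 and expansion of a single clone, and the study still detected a faint NRF2 band of lower weight in it. Both lines were untreated and grown in the same medium, with 3 replicate libraries each. The groups thus set 1 clone beside its parent, and the effect of NRF2 loss cannot be told apart from whatever else sets that clone apart. The labels do not say whether replicates were separate cultures, so p-values measured only the spread between these libraries.

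In selective autophagy, a receptor protein binds ubiquitinated cargo with one part and a lipid-bound ATG8 protein on the growing autophagosome membrane with another, so that the cargo is enclosed and brought to the lysosome. ULK1 starts the process, and ATG7 and ATG5 belong to the ubiquitin-like reactions that attach ATG8 proteins to lipid. SQSTM1 (p62) has a further role in this setting: it binds KEAP1, the adaptor that marks NRF2 for degradation, and the SQSTM1 gene is itself a known target of NRF2. RNA levels say nothing of autophagic flux, because SQSTM1 and the ATG8 proteins are themselves degraded in the process.

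Promoter sequences are shown for SQSTM1, whose RNA differed little between the lines, and for the 3 genes of the group whose windows held a searched motif, so that the letters can be read beside the values. Each window runs from 250 bases before to 50 bases after a RefSeq start (GRCh38.p14), and those shown are placed on the start of the canonical transcript. Over all RefSeq starts, the 10 genes had 16 windows. Capitals mark matches to the antioxidant response element core bound by NRF2 (TGACNNNGC), the cyclic AMP response element (TGACGTCA) or a forkhead site (GTAAACA) on either strand.
SQSTM1 (chr5:179820655-179820954, strand +): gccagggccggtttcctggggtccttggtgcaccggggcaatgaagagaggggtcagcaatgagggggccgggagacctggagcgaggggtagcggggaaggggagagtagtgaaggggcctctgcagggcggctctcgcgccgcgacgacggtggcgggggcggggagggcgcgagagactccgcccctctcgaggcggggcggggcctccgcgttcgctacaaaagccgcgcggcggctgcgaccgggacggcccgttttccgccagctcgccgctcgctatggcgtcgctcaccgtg
CALCOCO2 (chr17:48830785-48831084, strand +): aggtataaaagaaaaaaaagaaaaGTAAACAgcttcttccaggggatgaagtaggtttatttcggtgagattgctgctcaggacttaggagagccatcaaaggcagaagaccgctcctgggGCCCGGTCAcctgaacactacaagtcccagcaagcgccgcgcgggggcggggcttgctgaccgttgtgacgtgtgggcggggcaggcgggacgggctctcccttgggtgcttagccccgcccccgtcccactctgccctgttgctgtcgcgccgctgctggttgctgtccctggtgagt
MAP1LC3B (chr16:87392086-87392385, strand +): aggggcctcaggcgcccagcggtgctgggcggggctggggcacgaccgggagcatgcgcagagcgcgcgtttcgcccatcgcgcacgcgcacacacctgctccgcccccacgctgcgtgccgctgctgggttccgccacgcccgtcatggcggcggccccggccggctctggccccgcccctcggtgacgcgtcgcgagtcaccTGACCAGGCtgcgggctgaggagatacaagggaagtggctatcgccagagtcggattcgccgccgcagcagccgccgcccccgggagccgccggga
GABARAPL1 (chr12:10212627-10212926, strand +): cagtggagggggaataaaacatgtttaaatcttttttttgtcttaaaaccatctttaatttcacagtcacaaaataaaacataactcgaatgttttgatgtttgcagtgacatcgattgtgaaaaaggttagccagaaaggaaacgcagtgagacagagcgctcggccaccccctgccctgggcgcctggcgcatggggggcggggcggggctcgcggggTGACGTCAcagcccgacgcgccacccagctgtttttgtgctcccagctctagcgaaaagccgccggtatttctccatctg

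The antioxidant response element core occurred in the windows of CALCOCO2 and MAP1LC3B, and in 13.3% of 35116 promoters of the same length. The first base of the match was at position -129 from the start in CALCOCO2, on the minus strand, and at -46 in MAP1LC3B. The cyclic AMP response element occurred in GABARAPL1 (1.85% of promoters) and the forkhead site in CALCOCO2 (3.42%). An E-box (CACGTG), which the MiT/TFE regulators of autophagy genes can bind, was found in none of the 16 windows and in 7.26% of all promoters. An AP-1 site (TGANTCA), whose letters can overlap the antioxidant response element core, and the site of nuclear respiratory factor NRF1 were in none of the 16 windows, against 7.71% and 1.24% of promoters. None of the 3 SQSTM1 windows held any of these 6 motifs, which concerns these bases only and not elements farther away.

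The libraries held between 52072801 and 63975313 reads assigned to genes, so the deepest had 1.23 times the reads of the shallowest. NFE2L2, the targeted gene, was at 61.4% of the parental level in NRF2null-KYSE70 (log2 fold change -0.71, limma adjusted p = 9.37e-08). It shares 23.4% of its exon bases with HNRNPA3 on the opposite strand and 13.6% with a long non-coding RNA gene on the same strand. How reads over these shared bases were counted is not known. All 9 squamous epithelial markers were detected in both lines, and by limma 6 of them, such as KRT14 and KRT6A, were higher and 3, such as KRT5 and TP63, were lower in NRF2null-KYSE70. The list had summed normalized counts of 330083 to 337532 in KYSE70 and 256896 to 269362 in NRF2null-KYSE70. KRT5 was the largest part of these sums, with means of 209917 in KYSE70 and 124641 in NRF2null-KYSE70. Of 9 fibroblast, endothelial and immune markers, 6 had a mean normalized count under 10, with COL1A2 and DCN at 0 reads in every library. The list summed to between 1316 and 1483 in KYSE70 and between 778 and 1088 in NRF2null-KYSE70, most of it from COL1A1, and its part in the results below was not tested. Of its 3 tested members, VWF and PTPRC were higher in NRF2null-KYSE70 and COL1A1 was lower. Values are normalized counts, that is, reads per gene divided by a size factor per library, and a value after ± is the SD over the 3 libraries of a line. Because RNA was pooled from all cells, fewer cells expressing a gene and less RNA per cell cannot be told apart.

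SQSTM1 RNA was nearly the same in both lines, whereas the other 4 receptor genes were each between 1.41 and 1.48 times the parental level in NRF2null-KYSE70. MAP1LC3B and ATG5 rose to a like extent and GABARAPL1 by less, while ATG7 and ULK1 fell. In all, 9 of the 10 genes passed a limma adjusted p under 0.05, beside 57.6% of the 15994 genes tested. The change was upward in 7 and downward in 2, against 29.3% and 28.3% of all tested genes. No member reached an absolute log2 fold change of 1 together with that p, a combination that 14.7% of the tested genes met. The median log2 fold change of the 10 genes was 0.50, against -0.007 for all tested genes. In all 10 genes the 2 sets of libraries were fully separate, which was also true of 63.4% of the tested genes.

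**Figure D1:**
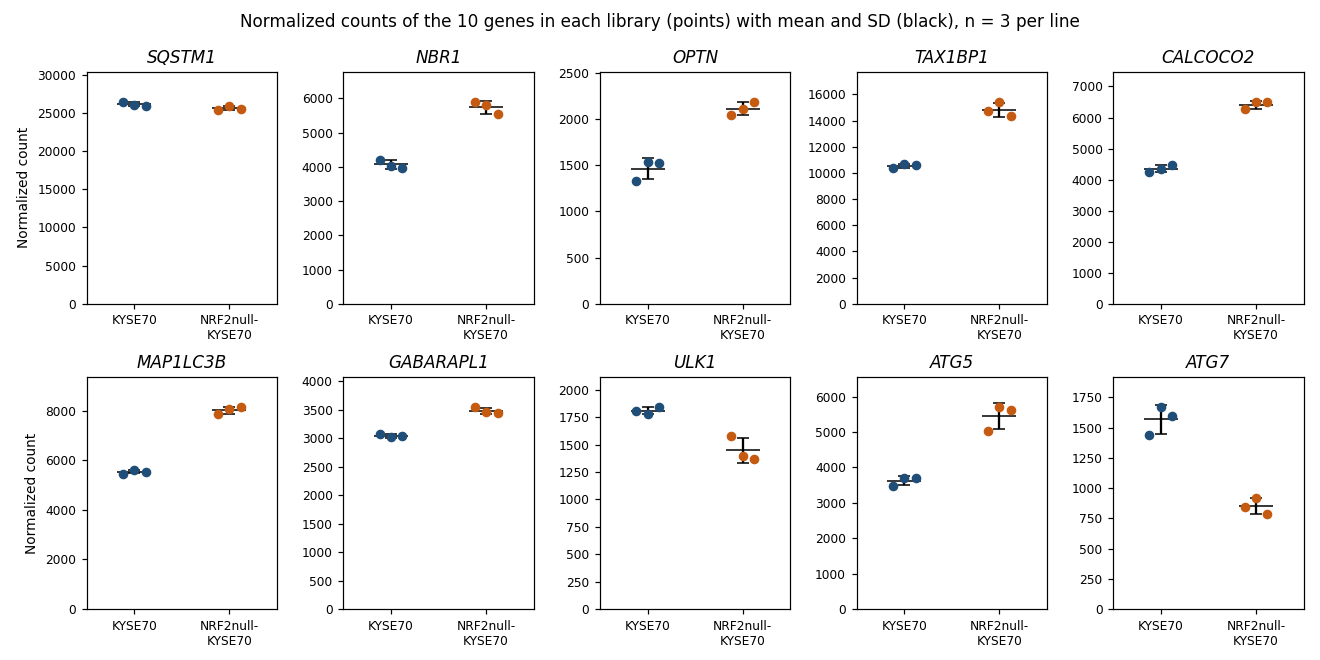
Normalized counts (vertical axes, each from 0) of the 10 genes in the 3 KYSE70 and 3 NRF2null-KYSE70 libraries, with a point per library and the mean and SD in black. SQSTM1 sits between 25372 and 26401 in all 6 libraries, 7 genes sit higher in NRF2null-KYSE70, and ULK1 and ATG7 sit lower.

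SQSTM1 (ENSG00000161011, chromosome 5, 179806398 to 179838078, plus strand, hg38) was the most abundant of the 10 genes, per kilobase as well as in normalized counts. It had 26401, 26066 and 25949 normalized counts in the KYSE70 libraries and 25372, 25884 and 25547 in the NRF2null-KYSE70 libraries. Every NRF2null-KYSE70 library was thus below every KYSE70 library, but by little, since the mean was 26138.5 ± 234 in KYSE70 and 25601 ± 260 in NRF2null-KYSE70, which is 97.9% of the parental mean. This was a log2 fold change of -0.03 with a 95% interval from -0.12 to 0.06 (limma adjusted p = 0.559), so a fall larger than 0.12 on the log2 scale lay outside the interval. Only 4.96% of the tested genes had a smaller absolute change. The call depended on the scaling: the log2 fold change was -0.11 (limma adjusted p = 0.046) with total scaling, -0.16 (adjusted p = 0.0068) with quantile normalization, and -0.14 (adjusted p = 0.0108) relative to chromosomal neighbours. None of these put SQSTM1 beyond -0.16. Here and below, an adjusted p relative to neighbours kept the limma SE of the gene and took the neighbour median as fixed. The error of that median is left out. The gene shares 21% of its merged exon bases with MRNIP on the opposite strand, and MRNIP had a mean of 756 in KYSE70 and 622 in NRF2null-KYSE70, a small amount beside SQSTM1. MGAT4B, also on the opposite strand, shares 1.39% of these bases and had means of 9940 and 9463. Whether the counting used strand was not stated, so the handling of reads over shared bases is not known.

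KEAP1, the partner to which SQSTM1 binds, fell to 58.3% of the parental level (log2 fold change -0.78, limma adjusted p = 1.2e-07). Per kilobase of merged exons, SQSTM1 RNA was 1.26 ± 0.0156 times that of KEAP1 in KYSE70 and 2.13 ± 0.157 times in NRF2null-KYSE70. The ratio was 1.26, 1.27 and 1.24 in the KYSE70 libraries and 2.25, 2.18 and 1.95 in the NRF2null-KYSE70 libraries. The groups did not overlap, and the two-sided exact permutation p of 0.1 was the smallest that 3 libraries against 3 can give. Merged exons are 7535 bases in SQSTM1 and 3573 in KEAP1, whereas the canonical transcripts are 2840 and 2565 bases. The ratio would thus be higher in both lines with canonical lengths, so its level depends on the length used. Its change between the lines does not.

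Among the other receptors, TAX1BP1 (chromosome 7, 27739331 to 27844564), which recruits the autophagy machinery to ubiquitin condensates, was the most abundant. Its normalized counts were 10350.0, 10652 and 10576 in KYSE70 and 14733, 15412 and 14343 in NRF2null-KYSE70. This was a rise of 0.49 on the log2 scale (limma SE 0.0452 and adjusted p = 1.13e-06). The 40 nearest tested protein-coding genes around TAX1BP1 had a median log2 fold change of 0.21, and relative to them its rise was 0.28 (limma adjusted p = 0.000173). CALCOCO2 (NDP52, chromosome 17, 48831018 to 48866522), a receptor for bacteria and damaged mitochondria, had 4244, 4330.4 and 4465 normalized counts in the parental libraries and 6266, 6495 and 6485 in those of NRF2null-KYSE70. Its rise was 0.56 on the log2 scale (limma SE 0.0472 and adjusted p = 5.18e-07). Its promoter was one of the windows with an antioxidant response element core, shown above.

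NBR1 (chromosome 17, 43170481 to 43211689), a relative of SQSTM1 in domain structure that joins it in ubiquitin condensates, had 4207, 4036 and 3965 normalized counts in the parental libraries and 5891, 5810.0 and 5531 in those of NRF2null-KYSE70. It rose by 0.50 on the log2 scale (limma SE 0.05 and adjusted p = 2.7e-06). NBR1 and CALCOCO2 lie on the same chromosome, and the medians of their neighbouring genes were near 0, at -0.10 and 0.06. OPTN (optineurin, chromosome 10, 13099449 to 13138308), a receptor that the kinase TBK1 phosphorylates, was the least abundant receptor. It had 1329, 1531 and 1526 normalized counts in the parental libraries and 2048, 2105 and 2184 in those of NRF2null-KYSE70, with a log2 fold change of 0.53 (limma SE 0.0704 and adjusted p = 3.03e-05). KYSE70 library 1 was lower than the other 2 of its line for OPTN, and the groups were still separate. CCDC3, which overlaps 2.86% of the OPTN exon bases on the opposite strand, moved the other way (log2 fold change -1.80, limma adjusted p = 2.25e-09).

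The 95% intervals of the 4 rising receptors ran from 0.40 to 0.59 for TAX1BP1, 0.46 to 0.66 for CALCOCO2, 0.39 to 0.61 for NBR1 and 0.38 to 0.69 for OPTN. They all overlapped one another, and none of them overlapped the interval of SQSTM1. Relative to SQSTM1 in the same library, normalized counts of CALCOCO2 went from 16.6% ± 0.566 to 25.1% ± 0.346 and those of TAX1BP1 from 40.3% ± 0.929 to 57.9% ± 1.70. NBR1 went from 15.6% ± 0.337 to 22.4% ± 0.784 and OPTN from 5.60% ± 0.488 to 8.25% ± 0.259. In each of these 4 ratios the 2 sets of libraries were separate, with the exact permutation p at its minimum of 0.1.

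Levels were compared between genes per kilobase of merged exons. On this scale SQSTM1 had 3469 ± 31.1 normalized counts in the parental line and 3398 ± 34.5 in NRF2null-KYSE70. It held 58.7% ± 0.566 of the summed level of the 5 receptor genes in KYSE70 and 49.4% ± 0.325 in NRF2null-KYSE70. The other 4 receptors together thus went from 70.4% to 103% of the SQSTM1 level. The summed level of all 5 was 5909 ± 10.1 in KYSE70 and 6882 ± 102 in NRF2null-KYSE70, or 1.16 times as high. The length of the canonical transcript was also used in place of merged exons, a choice made after seeing the data. The SQSTM1 share was then 62.3% in KYSE70 and 53.1% in NRF2null-KYSE70. With that length the other 4 together stayed below SQSTM1 in both lines, so their passing it in NRF2null-KYSE70 depended on the length used.

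**Figure D2:**
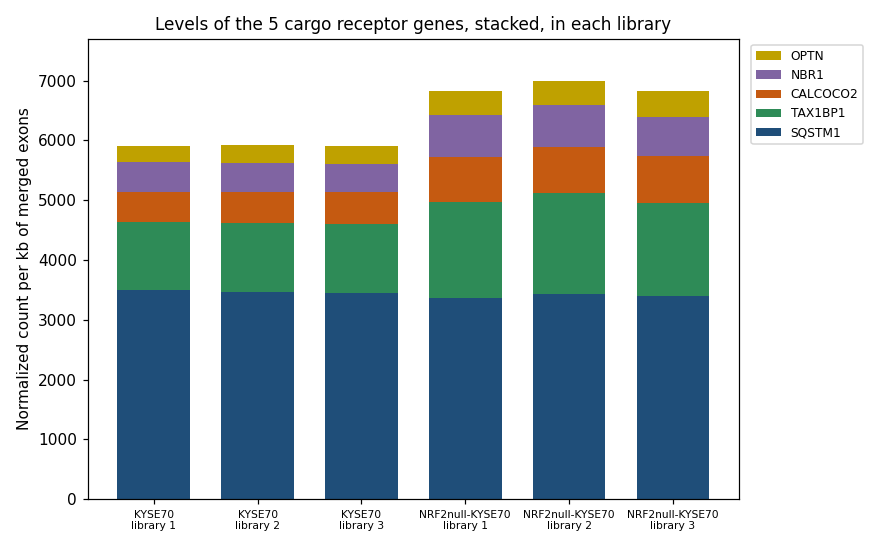
Stacked normalized counts per kilobase of merged exons (vertical axis, from 0) of the 5 receptor genes in each library. The SQSTM1 segment has nearly the same height in all 6 libraries, and the other 4 segments are taller in the NRF2null-KYSE70 libraries, whose totals lie between 6819 and 7000 against 5903 to 5921 in KYSE70.

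The order of levels per kilobase in KYSE70 was SQSTM1, TAX1BP1, MAP1LC3B, GABARAPL1, ATG5, CALCOCO2, NBR1, OPTN, ULK1 and ATG7. Levels ran from 3469 to 178, and the libraries of no neighbouring pair in this order overlapped. In NRF2null-KYSE70 ATG5, at 964 ± 65.5, stood above GABARAPL1, at 858 ± 13.5, and TAX1BP1 and MAP1LC3B overlapped at 1618 ± 59 and 1591 ± 27.2. The bottom of the order was ULK1 at 190 ± 15.3 and ATG7 at 96.3 ± 7.64, which did not overlap. With the canonical length, ATG5 stood below both GABARAPL1 and CALCOCO2 in either line, and in NRF2null-KYSE70 its libraries overlapped those of CALCOCO2.

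The ATG8 family genes encode the ubiquitin-like proteins to which receptors bind. MAP1LC3B (chromosome 16, 87383953 to 87404779), the source of the LC3B protein used as an autophagosome marker, had 5461, 5613 and 5542 normalized counts in the parental libraries and 7861, 8047 and 8128 in those of NRF2null-KYSE70. It rose by 0.53 on the log2 scale (limma SE 0.0445 and adjusted p = 4.93e-07), while its neighbouring genes had a median of 0.03. GABARAPL1 (chromosome 12, 10212458 to 10223128), of the GABARAP branch, had 3067, 3012 and 3029 normalized counts in the parental libraries and 3538, 3457 and 3434 in those of NRF2null-KYSE70. Its rise of 0.20 (limma SE 0.0494 and adjusted p = 0.00448) was the smallest among the called members. It was lost with total scaling (0.12, limma adjusted p = 0.052) and relative to its chromosomal neighbours, whose median was 0.16 (0.03, limma adjusted p = 0.587). Per kilobase, MAP1LC3B was 147% ± 3.37 of GABARAPL1 in KYSE70 and 186% ± 6.04 in NRF2null-KYSE70, without overlap and with the exact permutation p at its minimum of 0.1.

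Of the 5 other ATG8 genes, 4 were tested, of which 2 (50%) rose and none fell at a limma adjusted p under 0.05. Among all tested genes, 29.3% rose and 28.3% fell. MAP1LC3A, which encodes LC3A, rose from 85.5 ± 14.0 to 282 ± 17.1 normalized counts, or by 1.72 on the log2 scale (limma SE 0.171 and adjusted p = 2.36e-06), the largest rise in any of the autophagy lists. GABARAPL2, chosen after its values were seen, had a log2 fold change of 0.41 (limma adjusted p = 0.000102), and GABARAP one of -0.07 (limma adjusted p = 0.712). MAP1LC3C had no read in any library. MAP1LC3B2, a near-identical copy of MAP1LC3B, had 71 reads in the 3 KYSE70 libraries and 43 in the 3 NRF2null-KYSE70 libraries, against 17585 and 23076 for MAP1LC3B, although the counting of reads that fit both was not stated.

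Initiation and conjugation genes of the group moved both ways. ULK1 (chromosome 12, 131894622 to 131923150), the kinase at the start of autophagy, had 1808, 1776 and 1840.1 normalized counts in the parental libraries and 1581, 1393 and 1368 in those of NRF2null-KYSE70. It fell to 80.1% of the parental level (log2 fold change -0.32, limma SE 0.07 and adjusted p = 0.00154), and NRF2null-KYSE70 library 1 was nearer to the parental libraries than the other 2. The 39 nearest tested protein-coding genes had a median log2 fold change of -0.56. Relative to them ULK1 was higher rather than lower, by 0.23 (limma adjusted p = 0.0137), so its direction depended on this choice. ULK2, its relative, was at a mean of 0.599 normalized counts in the parental line and 5.44 in NRF2null-KYSE70 and was not tested.

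ATG7 (chromosome 3, 11272309 to 11557665), the E1-like enzyme that activates both ATG12 and the ATG8 proteins, showed the largest change of the 10 genes before any neighbour subtraction. It had 1441, 1668 and 1595 normalized counts in the parental libraries and 842, 922 and 788 in those of NRF2null-KYSE70, so that the lines were well apart. This was 54.2% of the parental mean, or -0.88 in log2 (limma SE 0.0834 and adjusted p = 1.52e-06), and 80.5% of the tested genes had a smaller absolute change. The 40 neighbouring genes had a median of -0.46, and the value relative to them was -0.42 (limma adjusted p = 0.000985), smaller in size than those of NBR1, OPTN, CALCOCO2, MAP1LC3B and ATG5. VGLL4, on the opposite strand, covers 18.1% of the ATG7 exon bases and also fell (log2 fold change -0.25, limma adjusted p = 0.00186), and whether the counting used strand was not stated. ATG5 (chromosome 6, 106045423 to 106325791, minus strand), which is joined to ATG12 to form the enzyme that lipidates ATG8 proteins, went the other way. It had 3468, 3706 and 3709 normalized counts in the parental libraries and 5024, 5696 and 5629 in those of NRF2null-KYSE70, or 3628 ± 138 and 5449.7 ± 370 on average (log2 fold change 0.59, limma SE 0.0593 and adjusted p = 2.88e-06). Its neighbours had a median of 0.10. The 2 genes of this reaction chain thus moved in opposite directions, with 95% intervals from -1.06 to -0.70 for ATG7 and from 0.46 to 0.71 for ATG5.

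**Figure D3:**
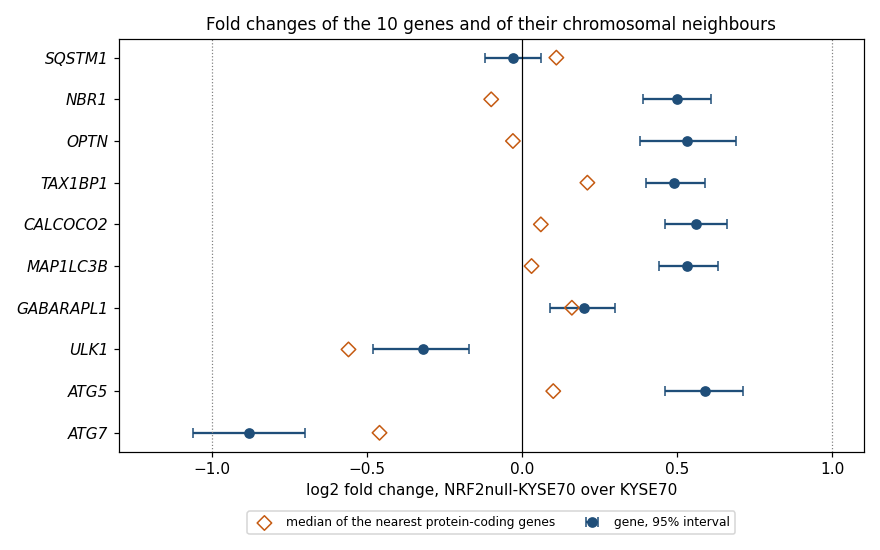
Log2 fold change (horizontal axis, NRF2null-KYSE70 over KYSE70) of each of the 10 genes with its 95% interval, and the median of up to 40 nearest tested protein-coding genes as an open diamond. For ULK1 and ATG7 the neighbours also lie below 0, at -0.56 and -0.46, while for NBR1, OPTN, CALCOCO2 and MAP1LC3B they lie between -0.10 and 0.06.

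The other genes of the pathway were compared in 6 lists of 100 genes in all, of which 96 were tested. By limma, at an adjusted p under 0.05, 42 of these (43.8%) were higher and 21 (21.9%) were lower, beside 29.3% and 28.3% of all tested genes. Their median log2 fold change was 0.05. With total scaling, which shifted all fold changes by a median of -0.075, the split was 37 higher and 31 lower. The shares of all tested genes in each direction are not given for that scaling, so this split has no background beside it. When the change also had to reach 1 on the log2 scale in either direction, 1 was higher and 3 were lower, beside 7.23% and 7.43% of all tested genes.

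Of 11 tested genes of the initiation complexes, 6 (54.5%) rose and 1 (9.09%) fell, beside 29.3% and 28.3% of all tested genes. The other 4 did not pass. RB1CC1 (FIP200), the scaffold of the ULK1 complex, went from 5468 ± 48.7 to 10444 ± 95.5 normalized counts, a change of 0.93 in log2 (limma SE 0.0431 and adjusted p = 2.16e-09). ATG13, another subunit of that complex, had a log2 fold change of 0.65 (limma SE 0.0582 and adjusted p = 9.14e-07). ATG101, a further subunit and the list member that fell, had a log2 fold change of -0.36 (limma adjusted p = 0.000172) and was singled out after its values were seen. Its neighbours had a median of -0.28, and relative to them its value of -0.07 did not pass (limma adjusted p = 0.309). BECN1 and ATG14 of the lipid kinase complex, likewise picked with values known, were both at -0.07 on the log2 scale and did not pass (limma adjusted p = 0.356 and 0.337).

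Of 22 tested genes for ATG8 conjugation, lipid supply and fusion, 12 (54.5%) rose, 1 (4.55%) fell and 9 did not pass. The shares of all tested genes were 29.3% rising and 28.3% falling. TMEM41B, a lipid scramblase needed for the autophagosome membrane, rose from 1784 ± 85.2 to 3168 ± 258 normalized counts, or by 0.83 on the log2 scale (limma SE 0.0691 and adjusted p = 4.97e-07). ATG4A, a protease that trims ATG8 proteins, rose by 0.64 (limma SE 0.0648 and adjusted p = 3.03e-06). ATG4B, chosen after its values were seen, was the member that fell, with a log2 fold change of -0.50 (limma adjusted p = 4.56e-06).

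Of 19 tested further cargo receptors, 9 (47.4%) rose and 6 (31.6%) fell, beside 29.3% and 28.3% of all tested genes. The other 4 did not pass. ATL3, a receptor for tubular endoplasmic reticulum, fell from 1993 ± 98.0 normalized counts to 14.5 ± 11.8, with 2, 26 and 14 reads in the NRF2null-KYSE70 libraries. Its log2 fold change was -7.49 (limma SE 0.566 and adjusted p = 1.88e-07) and lay between -8.12 and -6.55 on leaving out single libraries, and its size rests on those few reads. The median of its neighbouring genes was 0.01. The remaining tested receptors of the list had log2 fold changes from -0.87 to 0.87, the lowest in TEX264 and the highest in CCPG1, both receptors for endoplasmic reticulum and chosen after their values were seen. Their neighbours moved the same way, with medians of -0.62 and 0.55, which left -0.25 for TEX264 and 0.33 for CCPG1 (limma adjusted p = 0.00437 and 0.00605).

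Of 14 tested kinases and transcriptional regulators, 4 (28.6%) rose and 5 (35.7%) fell, beside 29.3% and 28.3% of all tested genes. The other 5 did not pass. DEPTOR, an inhibitor of the kinase mTOR, fell from 70.0 ± 4.51 to 31.6 ± 14.2 normalized counts, a change of -1.20 in log2 (limma SE 0.325 and adjusted p = 0.00658). The 3 MiT/TFE factors on the list, which drive lysosome and autophagy genes, were singled out after their values were seen. MITF, TFEB and TFE3 had log2 fold changes of -0.88, -0.40 and -0.17 (limma adjusted p = 3.36e-05, 0.0195 and 0.0329). The libraries of TFE3 overlapped between the lines. TBK1, the kinase of OPTN and also picked with values known, fell as well (log2 fold change -0.38, limma adjusted p = 2.14e-05), but its neighbours had a median of -0.73, and relative to them TBK1 was higher by 0.35 (limma adjusted p = 5.43e-05).

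Of 26 lysosome genes, 9 (34.6%) rose and 8 (30.8%) fell, beside 29.3% and 28.3% of all tested genes, and 9 did not pass. The median log2 fold change of the list was -0.02. CTSL, the cysteine protease cathepsin L, fell from 2597 ± 30.5 to 742 ± 66.9 normalized counts, a change of -1.81 in log2 (limma SE 0.0758 and adjusted p = 8.51e-10), and its neighbours had a median of 0.22. The other 25 lay between -0.85 for CTSB and 0.94 for NEU1, both chosen after their values were seen. CTSB neighbours had a median of -0.70.

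**Figure D4:**
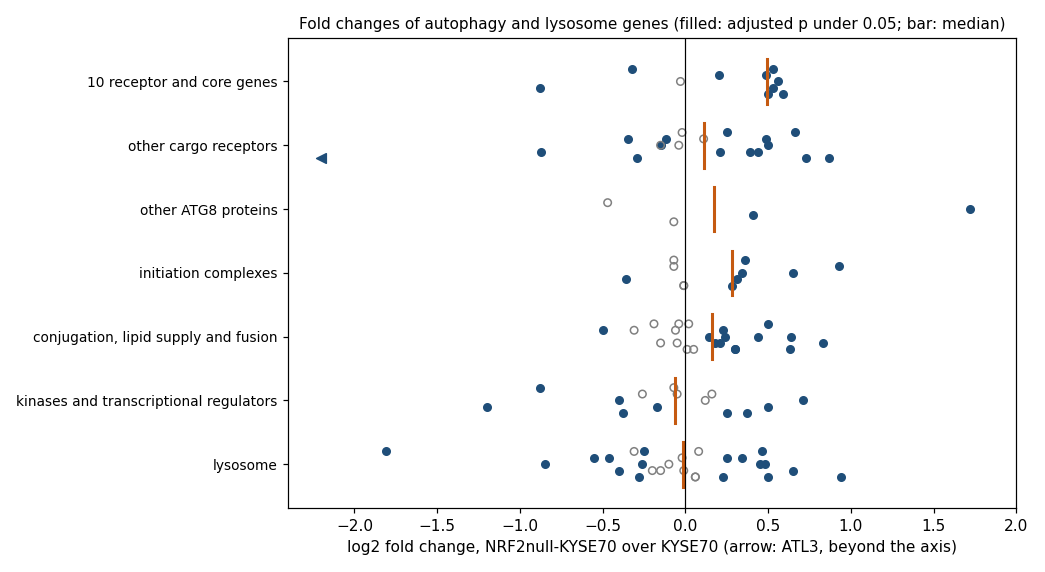
Log2 fold changes (horizontal axis, NRF2null-KYSE70 over KYSE70) of the tested genes of each list, filled where the limma adjusted p was under 0.05, with the list median as a bar. The median of the 10 receptor and core genes is 0.50, those of the other 6 lists lie between -0.06 and 0.28, and ATL3, at -7.49, is drawn as an arrow at the left edge.

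Genes with a pattern like that of SQSTM1 were sought among 8106 others with a mean of at least 1000. Over the 6 libraries, the highest Pearson correlations of log2 values were 0.992 for DUS2, 0.981 for RFWD3, 0.975 for TANGO6, 0.970 for PJA1 and 0.969 for NMNAT1. Their log2 fold changes were small, between -0.22 and -0.10, and with 6 points in 2 lines these values are a description only.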

How the data were processed

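RNA from KYSE70 and NRF2null-KYSE70 cells (n = 3 libraries per line) was sequenced. The authors aligned reads to hg38 with STAR (version 2.6.90c), counted them per gene with featureCounts (version 1.5.1) and deposited a signal in normalized counts, scaled by DESeq2. Their methods name RefSeq, whereas the table lists Ensembl identifiers. Strand setting and multi-mapped reads were not given in the sources used here. Columns carried the line but no replicate number, so libraries are numbered by table order.

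All deposited values were whole multiples of 1 read, between 0.889 and 1.14 normalized counts (tolerance 0.01), and the count of reads was recovered in 100% of values. The tested genes were the 15994 with a mean of at least 10. Differential expression was tested by limma (version 3.58.1; trended eBayes) on log2(normalized count + 1), which understates changes of low genes, with Benjamini-Hochberg adjustment over all tested genes. DESeq2 (1.42.0) and edgeR (4.0.16) were run on recovered reads and called 9202 and 9201 genes, against 9206 by limma. Tests were two-sided and the code was tested on simulated data. Positions, merged exon lengths and overlaps came from GENCODE v44 (hg38), and promoters from RefSeq.

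Neighbour medians used up to 20 tested protein-coding genes on each side. They were subtracted from the limma fold changes without a new fit. Each adjusted p relative to neighbours used the limma SE of the gene, so it omits the error of the median. Members and lists were chosen with earlier results of these data known. Named genes were the members, NFE2L2, KEAP1, up to 3 risers and 3 fallers per list past both thresholds (otherwise the 2 largest changes at adjusted p under 0.05), and the 5 most like SQSTM1. Precision covers counting and replicate spread only.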

Additional observations from a re-analysis of the deposited data

How the results depend on the processing

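Members were refitted under 18 alternatives: other pseudocounts, filters, scalings and tests, each library left out in turn, and subtraction of the neighbour median. NBR1, OPTN, TAX1BP1, CALCOCO2, MAP1LC3B, ATG5 and ATG7 kept their direction and an adjusted p under 0.05 in all 18, with log2 fold changes from 0.28 to 0.64 for the 6 that rose and from -0.96 to -0.42 for ATG7. SQSTM1 ranged from -0.16 to -0.02 and was called in 3 of the 18: total scaling (-0.11), quantile normalization (-0.16) and neighbour subtraction (-0.14). GABARAPL1 was not called with total scaling (0.12) or neighbour subtraction (0.03), and ULK1 reversed to 0.23 with the latter. Total scaling shifted all fold changes by a median of -0.075, and the cause of the other differences was not tested. Between 6 and 7 members were called higher and 2 or 3 lower.

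In the other lists, 37 to 42 genes were higher and 18 to 31 lower under these alternatives. Both the 37 and the 31 came from total scaling. Over all tested genes, 8159 to 9345 were called, and the shares in each direction are not given per alternative. The count that rose by 1 or more on the log2 scale was 1. It was 2 with neighbour subtraction, and from 1 to 2 on leaving out single libraries, reaching 2 without NRF2null-KYSE70 library 1. The count that fell by 1 or more was 3, and it was 4 without that library. The canonical length was added after seeing the data. SQSTM1 was 3.02 times TAX1BP1 per kilobase in KYSE70 and 2.10 times in NRF2null-KYSE70, and 2.99 and 2.08 times with the canonical length. Merged and canonical lengths are 7535 and 2840 bases in SQSTM1 and 9167 and 3423 in TAX1BP1, so this ratio could hardly move. The ratios of SQSTM1 to KEAP1 and of MAP1LC3B to GABARAPL1 depend more on the length used. No paired analysis was possible because the columns name the line only, without a replicate number.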

Other observations

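The spread between libraries of the same line differed among the 10 genes. The coefficient of variation was 0.897% in KYSE70 and 1.02% in NRF2null-KYSE70 for SQSTM1, the deepest of them with 83030 and 73789 reads over the 3 libraries of each line. For ATG7, the least abundant per kilobase, with 4972 and 2460 reads, it was 7.41% and 7.93%. ULK1 was uneven, at 1.77% in KYSE70 and 8.06% in NRF2null-KYSE70.

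Among genes with symbols like those of the members, SQSTM1P1, MAP1LC3BP1 and both rows of GABARAPL3 had 0 reads in all libraries, while NBR2 had 1466 reads in KYSE70 and 1498 in NRF2null-KYSE70.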
